A study of Mus musculus with 8 samples.

Results

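Adenylyl cyclases, cyclic nucleotide phosphodiesterases and the subunits of protein kinase A were examined in RNA sequencing of brain microvessels, as 39 of the 31616 genes with a log2 fold change in the authors' deposited table. They are the protein-coding genes whose symbol names a numbered adenylyl cyclase (Adcy), a numbered phosphodiesterase with at most a letter from a to d (Pde), or a catalytic or regulatory subunit of protein kinase A (Prkaca, Prkacb, Prkar). Pde10a was left out of the selection. The rule reads only biotype, symbol and whether a fold change is listed, but it was set with earlier results of these data known. They comprise 10 cyclase, 23 phosphodiesterase and 6 kinase entries, and 37 of the 39 carry a p-value. The phosphodiesterase entries hold 2 gene identifiers with the symbol Pde2a.

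The libraries came from cerebral microvessels, the small blood vessels isolated from brain, of wild-type mice of the strain labelled C57BL6. There were 4 libraries from mice with tMCAO, transient occlusion of the middle cerebral artery as a model of stroke, and 4 from sham-operated mice. The sources used here give neither age and sex, nor how long the artery was closed, when vessels were taken or whether each library is 1 mouse, so the spread behind the p-values may be technical. The file gives 1 log2 fold change and 1 p-value per gene, so values per library, expression levels and sequencing depth were not analysed here, and the microvessel label could not be checked against marker levels. The header does not say which group is the numerator. A positive sign was taken to mean higher after tMCAO, since the injury genes Il6 and Hmox1 stand at 5.92 and 3.81 on the log2 scale in the authors' deposited table.

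Adenylyl cyclases make cyclic AMP (cAMP) from ATP when G proteins, coupled to hormone and transmitter receptors, switch them on, and phosphodiesterases break cAMP and cyclic GMP (cGMP) down. Protein kinase A is a complex of regulatory and catalytic subunits. cAMP binds the regulatory subunits and frees the catalytic ones, which phosphorylate channels, cytoskeletal proteins and transcription factors such as CREB. In vessels these messengers relax smooth muscle and tighten the endothelial barrier, and in neurons of the striatum they carry dopamine and adenosine signals.

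More genes of this machinery were lower than higher after tMCAO. Of 37 tested members, 18 fell and 3 rose at an adjusted p under 0.05, while 16 did not pass. Over all 19294 tested genes, 32.8% passed in either direction, 17.6% lower and 15.2% higher, and over the 15316 tested protein-coding genes 38.4% passed. The share of members that fell was 48.6% and the share that rose was 8.11%. The median log2 fold change (log2 ratio of tMCAO over sham) of the tested members was -0.40, beside -0.0008 for all tested genes and 0.05 for the protein-coding ones. The median implied standard error of the members was 0.20 and that of all tested genes 0.22, which is the standard error that each deposited fold change and p-value imply together. A lower value in these bulk libraries can come from fewer cells of a type or from less RNA per cell, and these cannot be told apart.

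**Figure D1:**
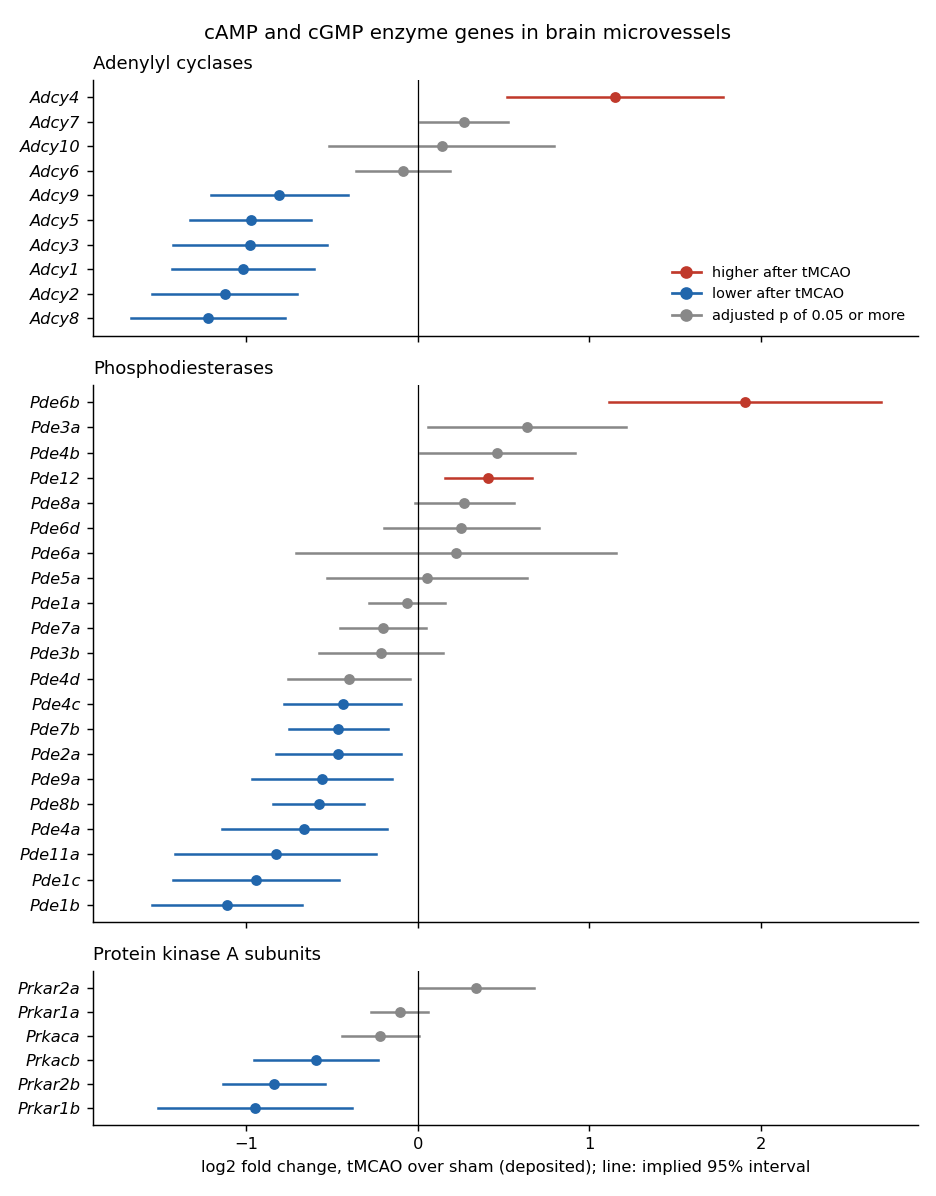
The log2 fold change (tMCAO over sham, horizontal axis) is drawn for each of the 37 tested members as a point with its implied 95% interval, in 3 panels by family, with colour for the direction of genes with an adjusted p below 0.05. The cyclases split into 6 genes between -1.22 and -0.81 and 4 between -0.08 and 1.15, while the phosphodiesterases spread from -1.11 up to 0.64, with Pde6b alone at 1.91.

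Among the cyclases, 6 of 10 fell, 1 rose and 3 did not pass, with a median log2 fold change of -0.89. The cyclases that calcium and calmodulin stimulate, Adcy1, Adcy3 and Adcy8, all fell. Adcy8, an enzyme that links calcium entry to cAMP in neurons, was 2.34-fold lower by the authors' deposited table (log2 ratio -1.22 with an implied standard error of 0.23, adjusted p = 3.51e-06). Adcy1, the other cyclase known for synaptic plasticity, was 2.02-fold lower by the authors' deposited table (log2 ratio -1.02 with an implied standard error of 0.21, adjusted p = 3.44e-05). Adcy3, known from olfactory neurons and primary cilia, had a log2 ratio of -0.98 in the authors' deposited table (implied standard error 0.23, adjusted p = 0.00026). Exons of Adcy3 and of Cenpo on the opposite strand overlap over 1380 bases, 22.1% of the exon length of Adcy3, and Cenpo had a log2 ratio of -0.01 (adjusted p = 0.954) by the authors' deposited table.

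The cyclases that the beta-gamma subunits of G proteins stimulate did not move as one. Adcy2, a neuronal enzyme, was 2.18-fold lower by the authors' deposited table (log2 ratio -1.12 with an implied standard error of 0.22, adjusted p = 6.14e-06). Adcy4 was 2.22-fold higher by the authors' deposited table (log2 ratio 1.15 with an implied standard error of 0.32, adjusted p = 0.00229), with an implied 95% interval from 1.44-fold to 3.44-fold. It no longer passed with fold changes centred on ribosomal protein genes, which lowers every gene by 0.87 (0.28, adjusted p = 0.423). Adcy7, known from blood cells and immune cells, did not pass and had a log2 ratio of 0.27 in the authors' deposited table (implied standard error 0.13, adjusted p = 0.0955). Whether Adcy4 and Adcy2 differ from each other was not tested.

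The pair of closely related cyclases that calcium inhibits gave unlike values. Adcy5, the main cyclase of the striatum, was 1.96-fold lower by the authors' deposited table (log2 ratio -0.97 with an implied standard error of 0.18, adjusted p = 2.82e-06). Adcy6, its relative in many other tissues, did not pass, at -0.08 in the authors' deposited table with an implied 95% interval from -0.36 to 0.19 (adjusted p = 0.687). The interval of Adcy6 does not reach the value of Adcy5, whose own implied interval ran from -1.33 to -0.62. Whether these 2 cyclases differ from each other was not tested. Adcy9, a widely made cyclase that forskolin barely activates, was 1.75-fold lower by the authors' deposited table (log2 ratio -0.81, adjusted p = 0.00074). Adcy10, the soluble cyclase that bicarbonate activates, had a log2 ratio of 0.14 in the authors' deposited table with a wide implied interval from -0.51 to 0.79 (adjusted p = 0.784). By log2 fold change the cyclases that fell lay between percentile 2.32 and percentile 8.24 of all tested genes, and Adcy4 lay at percentile 96.4.

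Promoters of the members differ in their number of CpG dinucleotides, the places where vertebrate DNA is methylated, and how the directions compare depends on which promoter of a gene is read. Promoter windows of 300 bases, from 250 before to 50 after the start site, were found in RefSeq (GRCm38.p6) for 30 of the 38 member symbols. The dinucleotide was counted after the fold changes were known, and for genes with several windows the highest count was taken. At least 20 of them were present in 13 of 16 members that fell, in 5 of 11 that did not pass and in 0 of 3 that rose. Several windows belong to 9 of the 16 members that fell and to 0 of the 3 that rose. By the lowest count in place of the highest, 6 of the 16 members that fell reached 20, or 37.5%, against 45.6% of tested protein-coding genes. Of 11637 tested protein-coding genes with windows, 54.2% had as many by the highest count, and the share was 55.8% of those that fell and 52.4% of those that rose. The members that fell and stayed under 20 by the highest count were Pde1c at 11, Pde7b at 10 and Pde4c at 3. The stretches before the start site of Adcy5, which fell, and of Adcy4 and Pde6b, which rose, are shown as examples with unlike counts. Their full windows hold 44, 16 and 4, and that of Adcy5 has the highest count of the members that fell. The median highest count was 21 for tested protein-coding genes and 8 for all genes with windows. Capitals mark each CG, and bases in any exon of the GENCODE M21 annotation were left out. Adcy5 (chr16:35154614-35154863, plus strand) holds 32 in 250 bases, Adcy4 (chr14:55784096-55784322, minus strand) holds 12 in 227 bases and Pde6b (chr5:108388123-108388372, plus strand) holds 3 in 250 bases.
Adcy5: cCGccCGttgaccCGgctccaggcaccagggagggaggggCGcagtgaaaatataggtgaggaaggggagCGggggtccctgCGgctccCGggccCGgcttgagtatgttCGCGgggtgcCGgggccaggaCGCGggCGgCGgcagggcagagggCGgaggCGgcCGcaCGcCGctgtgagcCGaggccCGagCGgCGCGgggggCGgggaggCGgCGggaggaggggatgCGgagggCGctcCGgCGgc
Adcy4: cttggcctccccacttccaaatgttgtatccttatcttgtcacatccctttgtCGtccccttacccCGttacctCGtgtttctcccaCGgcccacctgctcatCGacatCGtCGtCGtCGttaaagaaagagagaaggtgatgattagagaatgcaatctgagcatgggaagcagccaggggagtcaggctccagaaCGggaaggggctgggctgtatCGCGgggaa
Pde6b: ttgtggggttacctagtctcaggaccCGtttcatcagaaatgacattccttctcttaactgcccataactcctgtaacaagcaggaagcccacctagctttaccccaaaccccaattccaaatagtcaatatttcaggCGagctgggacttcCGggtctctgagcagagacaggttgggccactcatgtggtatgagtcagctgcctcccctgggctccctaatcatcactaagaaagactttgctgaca

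Phosphodiesterases fell in 9 of 21 tested genes and rose in 2, and 10 did not pass, with a median log2 fold change of -0.21. The dual-specificity enzymes, which split both cAMP and cGMP, fell in 4 of 7 tested genes. Pde1b, a calcium- and calmodulin-stimulated enzyme abundant in the striatum, was 2.16-fold lower by the authors' deposited table (log2 ratio -1.11 with an implied standard error of 0.22, adjusted p = 1.85e-05). Pde1c, of the same subfamily, was 1.92-fold lower by the authors' deposited table (log2 ratio -0.94 with an implied standard error of 0.25, adjusted p = 0.00114). Pde1a, the remaining member of that subfamily, stood at -0.06 in the authors' deposited table with an implied 95% interval from -0.28 to 0.16 (adjusted p = 0.718). This interval does not reach the values of Pde1b and Pde1c, but whether Pde1a differs from them was not tested. Pde11a had a log2 ratio of -0.83 in the authors' deposited table (implied standard error 0.30, adjusted p = 0.0214).

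Pde2a, a cGMP-stimulated enzyme, is listed under a pair of overlapping gene identifiers. The entry ENSMUSG00000110195 was 1.38-fold lower by the authors' deposited table (log2 ratio -0.46 with an implied standard error of 0.19, adjusted p = 0.0406). The entry ENSMUSG00000030653, which GENCODE M21 names Gm45837, had a log2 ratio of -0.10 and no p-value in the authors' deposited table. Of the exon length of this second model 95.6%, or 3955 bases, lies in exons of the first on the same strand. How reads from these bases were counted is not stated in these sources, so the value of Pde2a is uncertain. Its call was lost when fold changes were centred on the best measured genes (adjusted p = 0.0512).

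The PDE3 enzymes, which cGMP inhibits, were not called. Pde3a, found in smooth muscle, heart and platelets, had a log2 ratio of 0.64 in the authors' deposited table (implied standard error 0.29, adjusted p = 0.0809) and passed once a trend in gene length was removed (0.75, adjusted p = 0.0358). Pde3b, known from insulin-responsive tissue, had -0.21 in the authors' deposited table (adjusted p = 0.393).

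The cAMP-specific enzymes fell in 4 of 8 tested genes, at log2 ratios from -0.66 to -0.44. Pde8b, a high-affinity cAMP phosphodiesterase, was 1.49-fold lower by the authors' deposited table (log2 ratio -0.58 with an implied standard error of 0.13, adjusted p = 0.000245). Its relative Pde8a had a log2 ratio of 0.27 in the authors' deposited table (adjusted p = 0.145). Pde7b, known from the striatum, was 1.38-fold lower by the authors' deposited table (log2 ratio -0.46, adjusted p = 0.00841), and its adjusted p was 0.0529 once the length trend was removed. Pde7a, known from lymphocytes, had -0.20 in the authors' deposited table (adjusted p = 0.224).

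The 4 genes of the PDE4 subfamily, the targets of rolipram and of inhibitors used against inflammation, were spread on both sides of 0. Pde4a was 1.58-fold lower by the authors' deposited table (log2 ratio -0.66 with an implied standard error of 0.25, adjusted p = 0.0257). Pde4c was 1.35-fold lower by the authors' deposited table (log2 ratio -0.44, adjusted p = 0.0387). Pde4d had a log2 ratio of -0.40 that did not pass in the authors' deposited table (adjusted p = 0.0766). Pde4b, the form that supports TNF production in monocytes, had a log2 ratio of 0.47 in the authors' deposited table and did not pass either (implied standard error 0.23, adjusted p = 0.107). The implied intervals, which carry no adjustment for the number of genes, run from -0.76 to -0.04 for Pde4d and from 0.01 to 0.92 for Pde4b, so they do not overlap, but the difference between these genes was not tested.

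The cGMP-specific enzymes included the largest rise of any member. Pde6b, the beta catalytic subunit of the rod photoreceptor phosphodiesterase, was 3.76-fold higher by the authors' deposited table (log2 ratio 1.91 with an implied standard error of 0.40, adjusted p = 4.83e-05). Its implied 95% interval ran from 2.17-fold to 6.51-fold, and by log2 fold change it lay at percentile 98.8 of all tested genes. Pde6a, the alpha subunit that pairs with it in rods, had a log2 ratio of 0.22 in the authors' deposited table with the widest implied interval of the members, from -0.71 to 1.15 (adjusted p = 0.755). The cone subunit Pde6c had 0.44 and no p-value in the authors' deposited table. The inhibitory gamma subunits of rods and cones, Pde6g and Pde6h, had log2 ratios of 0.13 (adjusted p = 0.834) and 0.01 (adjusted p = 0.985) in the authors' deposited table. Pde6b shares no exon base with another gene of the GENCODE M21 annotation, where it lies on chromosome 5 from 108388391 to 108432397.

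Pde9a, the phosphodiesterase with the highest affinity for cGMP, was 1.47-fold lower by the authors' deposited table (log2 ratio -0.56 with an implied standard error of 0.21, adjusted p = 0.0259). Pde5a, the sildenafil target of vascular smooth muscle, had a log2 ratio of 0.06 in the authors' deposited table, with an implied 95% interval from -0.53 to 0.64 (adjusted p = 0.908). A change as large as that of Pde6b lies outside this interval, but the difference between these genes was not tested.

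A further pair of members carries the phosphodiesterase name without splitting cyclic nucleotides in the way described. Pde12, a mitochondrial enzyme that trims RNA tails, was 1.33-fold higher by the authors' deposited table (log2 ratio 0.41 with an implied standard error of 0.13, adjusted p = 0.00678), and with the same shift of every gene by ribosomal centring it stood at -0.46 (adjusted p = 0.000612). Its exons overlap those of Arf4 on the opposite strand over 527 bases, and Arf4 had a log2 ratio of 0.74 (adjusted p = 0.00252) by the authors' deposited table. Whether counting used strand is not stated in these sources, so reads of these overlapping genes cannot be told apart. Pde6d, a chaperone that carries lipid-anchored proteins, had a log2 ratio of 0.26 in the authors' deposited table (adjusted p = 0.416). Without these 2 genes 18 of 35 tested members fell and 2 rose.

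Protein kinase A fell in 3 of 6 subunit genes and rose in 0 by the authors' comparison. At an unadjusted p under 0.05, recovered from the deposited values, 3 were lower and 1 higher. Over all 19294 tested genes 4205 were lower and 3881 higher at that threshold. In each pair of subunits of 1 kind, 1 gene fell and the other did not pass. Prkar2b, the type II beta regulatory subunit abundant in neurons and fat, was 1.79-fold lower by the authors' deposited table (log2 ratio -0.84 with an implied standard error of 0.15, adjusted p = 1.56e-06), the smallest adjusted p of all members. Prkar2a, the type II alpha subunit made in most tissues, had a log2 ratio of 0.34 in the authors' deposited table (implied standard error 0.17, adjusted p = 0.107). Prkar1b, the type I beta subunit of the nervous system, was 1.93-fold lower by the authors' deposited table (log2 ratio -0.95 with an implied standard error of 0.29, adjusted p = 0.00529). Prkar1a, the type I alpha subunit of most tissues, had a log2 ratio of -0.11 in the authors' deposited table (adjusted p = 0.355), with the narrowest implied interval of the members, from -0.27 to 0.06.

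The catalytic subunits stood closer together. Prkacb was 1.51-fold lower by the authors' deposited table (log2 ratio -0.59 with an implied standard error of 0.19, adjusted p = 0.00694). Prkaca had a log2 ratio of -0.22 in the authors' deposited table (implied standard error 0.12, adjusted p = 0.14). The implied 95% intervals of the catalytic genes overlap, from -0.96 to -0.23 for Prkacb and from -0.44 to 0.01 for Prkaca.

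Prkar1a was the member with the full cAMP response element in a promoter window, the palindrome TGACGTCA to which CREB binds. The window places it 49 bases before a start site on chr11:109650890-109650917 (GRCm38.p6, plus strand), where the capitals below mark it.
Prkar1a: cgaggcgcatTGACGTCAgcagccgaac
The element was present in 2 of the 66 windows of members, both of Prkar1a, and in 1.79% of all 32851 windows. Its shorter core TGACG, searched on both strands and so counting each full element too, was present for 13 of the 30 members with a window, against 32.9% of tested protein-coding genes. Counted by window, 22.7% of the members' windows held it, against 20.8% of all windows. By direction it was present for 6 of 16 members that fell, 7 of 11 that did not pass and 0 of 3 that rose. The shares of tested protein-coding genes were 32.1% of those that fell, 32.7% of those not called and 34.4% of those that rose. With 3 members that rose, the directions cannot be compared.

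**Figure D2:**
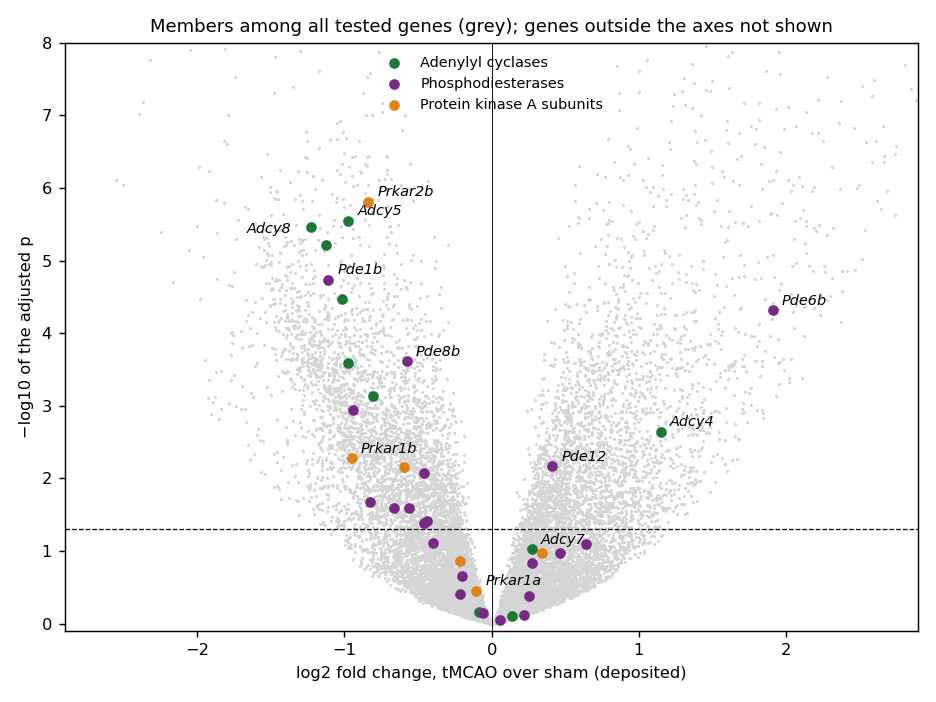
Each tested gene within the axes is a grey point at its deposited log2 fold change (tMCAO over sham, horizontal axis) and the −log10 of its adjusted p (vertical axis), with the members in colour by family and the dashed line at the threshold of 0.05. The members that fell gather between -1.22 and -0.44, and those that rose are Pde6b, Adcy4 and Pde12.

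The members closest to the threshold on the passing side were Pde2a and Pde4c, and those closest on the other side were Pde4d, Pde3a and Adcy7, with adjusted p-values from 0.0387 to 0.0955 in the authors' deposited table. Of the members that did not pass, 4 were higher and 1 was lower at an unadjusted p under 0.05. With those that passed, 7 of 37 tested members were higher and 19 lower at that threshold. Over all 19294 tested genes the counts were 3881 higher and 4205 lower. Changes of 1 or more on the log2 scale were seen in 4 of the 18 members that fell, Adcy8, Adcy2, Pde1b and Adcy1, and in 2 of the 3 that rose, Adcy4 and Pde6b. Over all tested genes 3391 fell, 953 of them with such a change, and 2941 rose, 923 of them with such a change. As shares of all tested genes, called or not, 9.72% passed the threshold with such a change, 4.94% lower and 4.78% higher. Pde10a, a striatal phosphodiesterase that the selection leaves out, was 2.97-fold lower by the authors' deposited table (log2 ratio -1.57, adjusted p = 7.12e-07), a larger fall than that of any member.

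Other genes of cyclic nucleotide signalling were described in 10 lists, in which 53 of 106 tested genes fell and 18, or 17.0%, rose, beside 17.6% lower and 15.2% higher over all tested genes. G protein alpha subunits fell in 4 of 7 genes and rose in 2, with a median log2 fold change of -0.54. Gnal, which activates cyclases in the striatum, was 2.76-fold lower by the authors' deposited table (adjusted p = 5.88e-05). The inhibitory subunits divided: in the authors' deposited table Gnai1 stood at -1.06 (adjusted p = 0.000252) and Gnaz at -0.87 (adjusted p = 0.00429), while Gnai3 stood at 0.89 (adjusted p = 0.00119) and Gnai2 at 0.77 (adjusted p = 0.0122). Gnao1, the abundant neuronal subunit, had -0.54 in the authors' deposited table (adjusted p = 0.00675).

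Receptors that raise cAMP through Gs fell in 12 of 23 genes and rose in 5, with a median of -0.80. Gpr6 at -2.67, the dopamine receptor gene Drd1 at -2.05, the adenosine receptor gene Adora2a at -1.45, the corticotropin-releasing hormone receptor gene Crhr1 at -1.25 and the PACAP receptor gene Adcyap1r1 at -0.81 fell in the authors' deposited table. The prostaglandin E receptor gene Ptger4 rose by 1.30 on the log2 scale in the authors' deposited table (adjusted p = 1.04e-06). The other 4 receptor genes that rose, named after their values were seen, were Ptgir at 1.79, Ptger2 at 1.21, Ptgdr at 1.18 and Calcrl at 1.08 in the authors' deposited table. Calcrl encodes the receptor of adrenomedullin and calcitonin gene-related peptide. Receptors that lower cAMP through Gi fell in 13 of 17 genes and rose in 2, with a median of -1.08, and the genes with the smallest p-values were Drd2 at -2.32, Oprk1 at -1.82, Adra2c at -1.61, Htr1a at -1.40, Htr1f at -1.47 and Cnr1 at -1.14 in the authors' deposited table. The Gi-coupled receptor genes that rose, also named after their values were seen, were Drd4 at 1.16 and Cnr2 at 0.81 in the authors' deposited table.

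The proteins that hold or block protein kinase A changed in both directions. A-kinase anchoring proteins fell in 6 of 13 tested genes and rose in 2, with a median of -0.19. Akap12, a scaffold also known as gravin, was 3.26-fold higher by the authors' deposited table (log2 ratio 1.70 with an implied standard error of 0.40, adjusted p = 0.000288). Akap5, the postsynaptic anchor, was 2.75-fold lower by the authors' deposited table (log2 ratio -1.46, adjusted p = 1.87e-05). Akap6 at -1.38, Akap8l at -0.62, Akap11 at -0.57 and Akap8 at -0.19 also fell in the authors' deposited table. Among the inhibitor peptides of the kinase, Pkig rose by 0.83 on the log2 scale (adjusted p = 0.000179) and Pkia had -0.66 (adjusted p = 0.00718) in the authors' deposited table, while Pkib, at -0.58, did not pass (adjusted p = 0.095).

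Of the other cAMP effectors 3 of 9 genes passed, a share of 33.3%. This is close to the 32.8% over all tested genes and below the 38.4% over tested protein-coding genes. The genes that passed were lower, among them the pacemaker channel genes Hcn4 at -1.35 and Hcn2 at -0.99 in the authors' deposited table. Rapgef3, which encodes the exchange factor Epac1 of endothelial barrier control, had a log2 ratio of 0.38 in the authors' deposited table and did not pass (adjusted p = 0.0683). CREB-related factors rose in 3 of 8 genes and fell in 2, with a median of 0.07. Atf1 stood at 0.63, Crem at 0.60, Crtc3 at 0.38, Crtc1 at -0.39 and Ep300 at -0.22 in the authors' deposited table.

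On the cGMP side, guanylyl cyclases, natriuretic receptors and cGMP-dependent kinases fell in 6 of 12 tested genes and rose in 1, with a median of -0.38. The gene that rose, Gucy2c, the guanylyl cyclase receptor known from intestine, was 7.79-fold higher by the authors' deposited table (log2 ratio 2.96 with an implied standard error of 0.32, adjusted p = 1.22e-17). The subunits of the soluble, nitric oxide-sensitive cyclase fell, with Gucy1a3 at -0.84, Gucy1b3 at -0.76 and Gucy1a2 at -0.54 in the authors' deposited table. Gucy2f at -1.32 and Prkg2 at -0.65 fell as well in the authors' deposited table. PKA-regulated phosphoproteins fell in 3 of 6 genes, Stmn1 at -1.16, Arpp21 at -0.84 and Arpp19 at -0.67, and Vasp, a cytoskeletal substrate of both kinases, rose by 0.89 on the log2 scale in the authors' deposited table. Ppp1r1b, the striatal phosphatase inhibitor DARPP-32, had -0.41 in the authors' deposited table and did not pass (adjusted p = 0.392). Of 8 partner genes of the enzymes, Cap2 at -1.03, Pde4dip at -0.48 and Ric8b at -0.39 fell and Cap1 at 0.50 rose in the authors' deposited table.

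**Figure D3:**
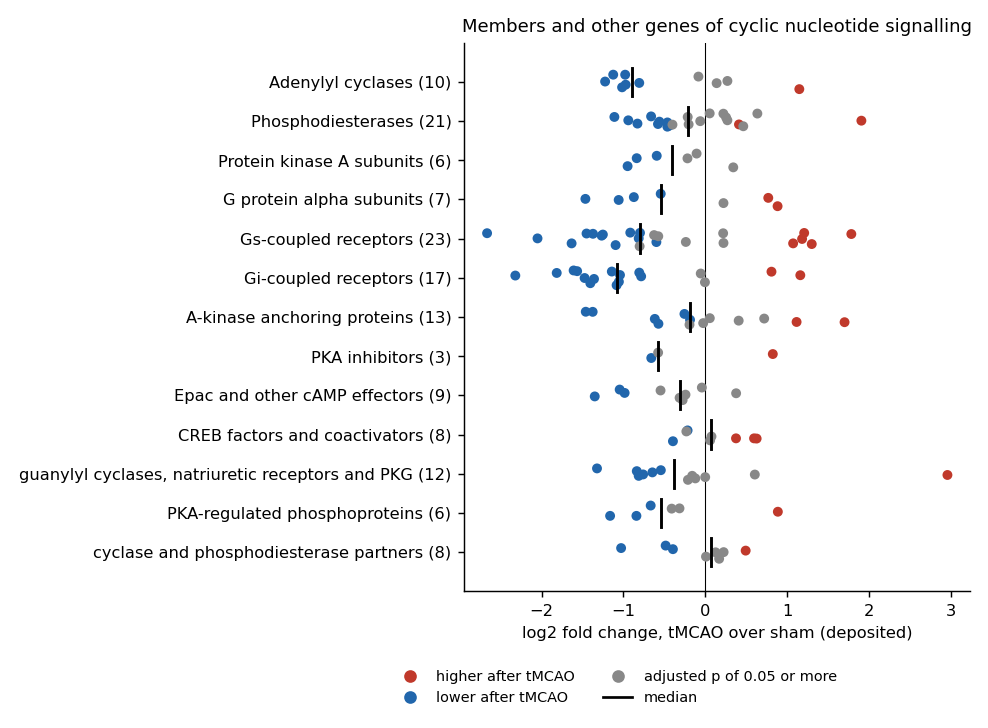
Each point is 1 tested gene at its deposited log2 fold change (tMCAO over sham, horizontal axis), in rows for the 3 member families and 10 further lists with the number of genes in brackets, with colour for direction where the adjusted p is under 0.05 and a black bar at the median. Gi-coupled receptors have the lowest median, -1.08, and Gucy2c at 2.96 is the highest point.

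Marker genes of several cell types moved in the same comparison, in which 17.6% of all tested genes fell and 15.2% rose. The part of these markers in the members' values was not tested. General neuron markers fell in 10 of 10 genes, with log2 ratios from -1.52 to -0.52 and a median of -1.05, among them Nefl at -1.31, Syp at -1.52 and Syt1 at -1.50 in the authors' deposited table. Markers of striatal projection neurons fell in 9 of 10, with a median of -1.91. Of these striatal markers Gpr6, Drd1, Drd2, Adora2a and Ppp1r1b also stand in the lists above, so these are not separate observations. All 18 members that fell had log2 ratios between -1.22 and -0.44. Of these, 3, Adcy8, Adcy2 and Pde1b, lay below the median of the general neuron markers. Pde2a at -0.46, Pde7b at -0.46 and Pde4c at -0.44 lay above the range of those markers. All 18 lay within the ranges of striatal (-2.67 to -0.41), microglia (-2.46 to 0.27) and oligodendrocyte markers (-1.38 to -0.05). Microglia markers fell in 5 of 8 genes (median -0.63) and oligodendrocyte markers in 5 of 7 (median -0.47), with Siglech at -2.46, P2ry12 at -1.74, Cx3cr1 at -1.34, Mog at -1.37 and Cnp at -0.43 in the authors' deposited table.

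Endothelial markers rose in 7 of 10 genes, with log2 ratios from 0.18 to 1.18 and a median of 0.83, including Cdh5 at 1.18, Emcn at 1.14 and Egfl7 at 1.04 in the authors' deposited table. The values of Adcy4, 1.15, and Pde12, 0.41, lay within this range, and that of Pde6b, 1.91, above it. Adcy4 also lay within the ranges of fibroblast (0.40 to 1.31), monocyte or macrophage (0.51 to 2.23), neutrophil (0.89 to 3.87) and astrocyte markers (-0.41 to 1.87). The astrocyte range reaches the value of Adcy4 through Gfap alone, and the median of that list was -0.04. Pde6b lay within the ranges of neutrophil and of monocyte or macrophage markers. Pde12 also lay within those of smooth muscle (-0.23 to 0.90), pericyte (-0.42 to 0.83), fibroblast and astrocyte markers. The cells behind these values were not tested. Neutrophil markers rose in 6 of 7 tested genes (median 2.55) and markers of monocytes or macrophages in 6 of 8 (median 1.63), with Trem1 at 3.87, Cxcr2 at 3.14, S100a8 at 2.92, Chil3 at 2.23, Plac8 at 2.06 and Itgam at 1.91 in the authors' deposited table. Smooth muscle markers rose in 1 of 8 genes, Des at 0.90, with Smtn at 0.46 and Cnn1 at 0.44 not passing, and pericyte markers rose in 2 of 8, Kcnj8 at 0.83 and Abcc9 at 0.45, and fell in 1, Cspg4 at -0.42, in the authors' deposited table. Astrocyte markers rose in 1 of 8, Gfap at 1.87, beside Aldh1l1 at 0.45 and Slc1a2 at -0.41, which did not pass, in the authors' deposited table. Fibroblast markers rose in 2 of 6, Dcn at 1.31 and Lum at 1.29, beside Col1a1 at 0.90, which did not pass, in the authors' deposited table. The share that rose was 12.5% for smooth muscle and for astrocyte markers. This is below the 15.2% over all tested genes and the 18.4% over tested protein-coding genes.

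**Figure D4:**
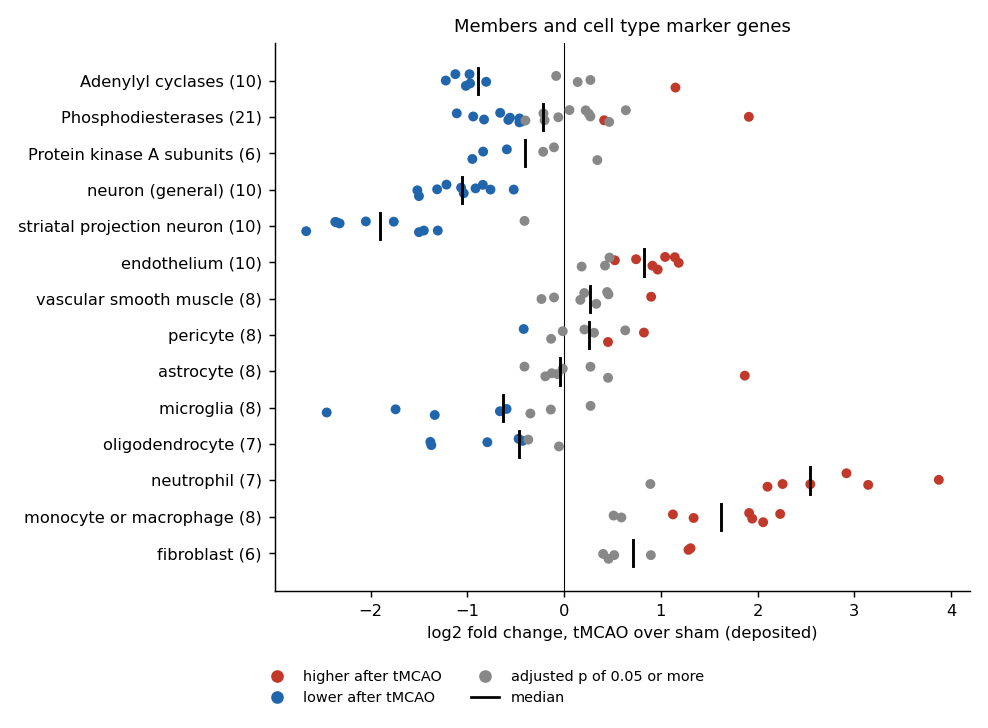
Each point is 1 tested gene at its deposited log2 fold change (tMCAO over sham, horizontal axis), in rows for the 3 member families and 11 cell type marker lists with the number of genes in brackets, with colour for direction where the adjusted p is under 0.05 and a black bar at the median. The medians are -0.89 for cyclases, -0.21 for phosphodiesterases and -0.40 for kinase subunits, beside -1.05 for general neuron, -0.63 for microglia, -0.47 for oligodendrocyte and 0.83 for endothelial markers.

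Gene size and overlaps were compared as further properties that the selection did not use. The median span on the chromosome was 123857 bases for the 18 members that fell and 69610 bases for the other 19 tested members, against 18194 bases over 19225 tested genes with a position in GENCODE M21. The exon length of the same sets had medians of 6014, 6733 and 3777 bases. The fitted trend of log2 fold change on exon length ran from -0.18 to 0.03 over the members. With this trend removed, Pde2a (adjusted p = 0.0518) and Pde7b (adjusted p = 0.0529) no longer passed and Pde3a did (adjusted p = 0.0358). The part of gene length in the members' values was not tested. Exons of 12 of the 39 members overlap another annotated gene, 9 of them on the opposite strand. The 12 include both Pde2a identifiers, which overlap each other. The share over all genes was not computed, so whether members overlap more often is unknown.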

How the data were processed

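RNA sequencing of brain microvessels covered 4 tMCAO and 4 sham libraries, grouped by title. Per the labels' protocols, total RNA was depleted of ribosomal RNA. Tools named without roles in the submitters' processing notes are STAR, HTSeq, DESeq2, cutadapt and bcl2fastq 2.19, with the build GRCm38 (mm10). Each gene has a log2 fold change and a p-value from the authors, per the file headers, with 0 columns of values per library; depth is unknown. Of 48404 listed genes 31616 have a fold change and 19294 a p-value, and 106 further lines name no gene.

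Deposited p-values were taken as adjusted after Benjamini and Hochberg, since 3214 values are shared by several genes as that adjustment leaves them. Unadjusted p-values were recovered from value, rank and number of tests, and the implied standard error is the log2 fold change over the matching normal deviate. This assumes a two-sided normal test. The authors may have shrunk the fold changes: 8 values of size 0.143 to 0.169, all without a p-value, are each shared by at least 212 genes. Errors and 95% intervals are therefore approximate. The arithmetic was tested on simulated data.

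Calls use an adjusted p under 0.05 over all tested genes, as in the design for files without counts. Members and lists were chosen with earlier results of these data known. Named genes are every member, up to 6 genes of each pathway list and up to 3 of each marker list with the smallest adjusted p. Some genes this rule names are not reported here. A search of protein motifs had been planned and was not run. Positions are from GENCODE M21 (GRCm38) and promoters from RefSeq (GRCm38.p6). Python 3.11.15, scipy 1.17.1 and statsmodels 0.14.6 were used.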

Additional observations from a re-analysis of the deposited data

How the results depend on the processing

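Without values per library, leaving out replicates was not run. No paired analysis was possible because the groups share no replicate numbers and the table holds no libraries. Adjusting over protein-coding genes changed no member's call; centring on the best measured genes (-0.02) ended that of Pde2a. Removing the length trend ended those of Pde2a and Pde7b and added Pde3a. Read as unadjusted and adjusted again, or at 0.01, the deposited p-values left 4 phosphodiesterases lower in place of 9. Under each, 16 of the 21 called members kept their call. Over all 19294 tested genes 4329 and 4220 passed under these settings, in place of 6332. At 0.1, 5 members were higher, 2 of them cyclases, and 19 were lower. At that threshold 3671 of all 19294 tested genes were higher and 4045 lower. Asking also for a change of 1 or more on the log2 scale, 4 members were lower, 3 cyclases, 1 phosphodiesterase and 0 kinase subunits. Under the same setting 2 members were higher, 1 cyclase and 1 phosphodiesterase, and of all tested genes 953 were lower and 923 higher.

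Centring on 76 ribosomal protein genes lowered every value by 0.87, so 14791 of 15135 called genes were lower. Members lower numbered 32, with 17 phosphodiesterases and 6 kinase subunits, and 1 phosphodiesterase and 0 cyclases were higher. The signs of 10 members turned: Pde12 -0.46, Pde3a -0.23, Adcy7 -0.60, Prkar2a -0.53, Pde4b -0.41, Pde8a -0.60, Pde6d -0.62, Pde6a -0.65, Adcy10 -0.73 and Pde5a -0.82. Adcy4 stayed positive at 0.28 without passing (adjusted p = 0.423), and Pde6b stayed higher. Depth and the spread between libraries are unknown here, so their part in the precision was not tested. The widest implied intervals belong to Pde6a and Pde6b.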
